A study of Mus with 4 samples.

Results

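The genes described here are 10 core genes of the circadian clock, *Arntl* (also called *Bmal1*), *Clock*, *Per1*, *Per2*, *Per3*, *Cry1*, *Cry2*, *Nr1d1*, *Nr1d2* and *Dbp*. They were chosen by name, and every m6A peak carrying 1 of these names in the peak lists of interscapular brown adipose tissue (iBAT) was taken. This gave 21 of 18400 peaks from *Wtap* flox/flox mice and 19 of 18693 peaks from *Wtap*-BKO mice. Of the 10 genes, 8 had peaks in both lists, *Cry2* had 1 in *Wtap*-BKO mice only, and *Cry1* had none in either list.

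The molecular clock is a feedback loop of transcription. CLOCK and ARNTL pair up and switch on the *Per*, *Cry*, *Nr1d1*, *Nr1d2* and *Dbp* genes. PER and CRY proteins then accumulate and repress CLOCK and ARNTL, while the nuclear receptors encoded by *Nr1d1* (REV-ERBα) and *Nr1d2* (REV-ERBβ) repress *Arntl*. In brown fat the clock runs in the adipocytes themselves, and REV-ERBα is known as a repressor of *Ucp1*. N6-methyladenosine (m6A) is placed on mRNA by the METTL3 and METTL14 methyltransferase with WTAP as its adaptor, and it bears on splicing, stability and translation of the transcripts that carry it.

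Both groups were C57BL/6 mice on normal chow, 8 weeks old, and both carried *Wtap* alleles with loxP sites around exon 4. The *Wtap* flox/flox controls had these alleles without Cre, and the *Wtap*-BKO mice had *Ucp1*-iCre in addition. Cre expression follows *Ucp1*, so brown adipocytes lose *Wtap*, whereas vascular, stromal and immune cells of the depot keep it. For each genotype, poly(A)+ RNA pooled from several mice gave 1 immunoprecipitate (IP) with an m6A antibody and 1 input, and peaks were called by the authors on that single pair. There are no replicates, so no test between genotypes was possible, and a pool cannot tell fewer cells of a type from less RNA per cell. The hour at which the tissue was taken is not given in the sources used here, and the lists hold neither transcript levels nor read totals, so depth is unknown and the deletion of *Wtap* could not be checked from them. A gene without a peak therefore had none that passed the authors' limit, a false discovery rate (FDR) under 0.05.

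Each peak has a fold enrichment, the ratio of IP to input signal in that genotype, and an FDR, given as its log10. Since the 2 lists share no scale, each peak was also ranked in its own list, as the percentage of peaks there with a weaker FDR. A peak was counted as found when at least 1 exonic base was shared with a peak of the other list on the same strand, which held for 67.8% of all control and 68.0% of all *Wtap*-BKO peaks. Positions refer to GRCm38, the build in the submitters' processing notes, and all 21 control and 19 *Wtap*-BKO clock gene peaks lay inside the span of their gene in a RefSeq table of that build. Peaks are numbered from the 5′ end of each gene. Exons and UTRs were not annotated in that table, so places along a gene are given as genomic distance from its ends.

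**Figure D1:**
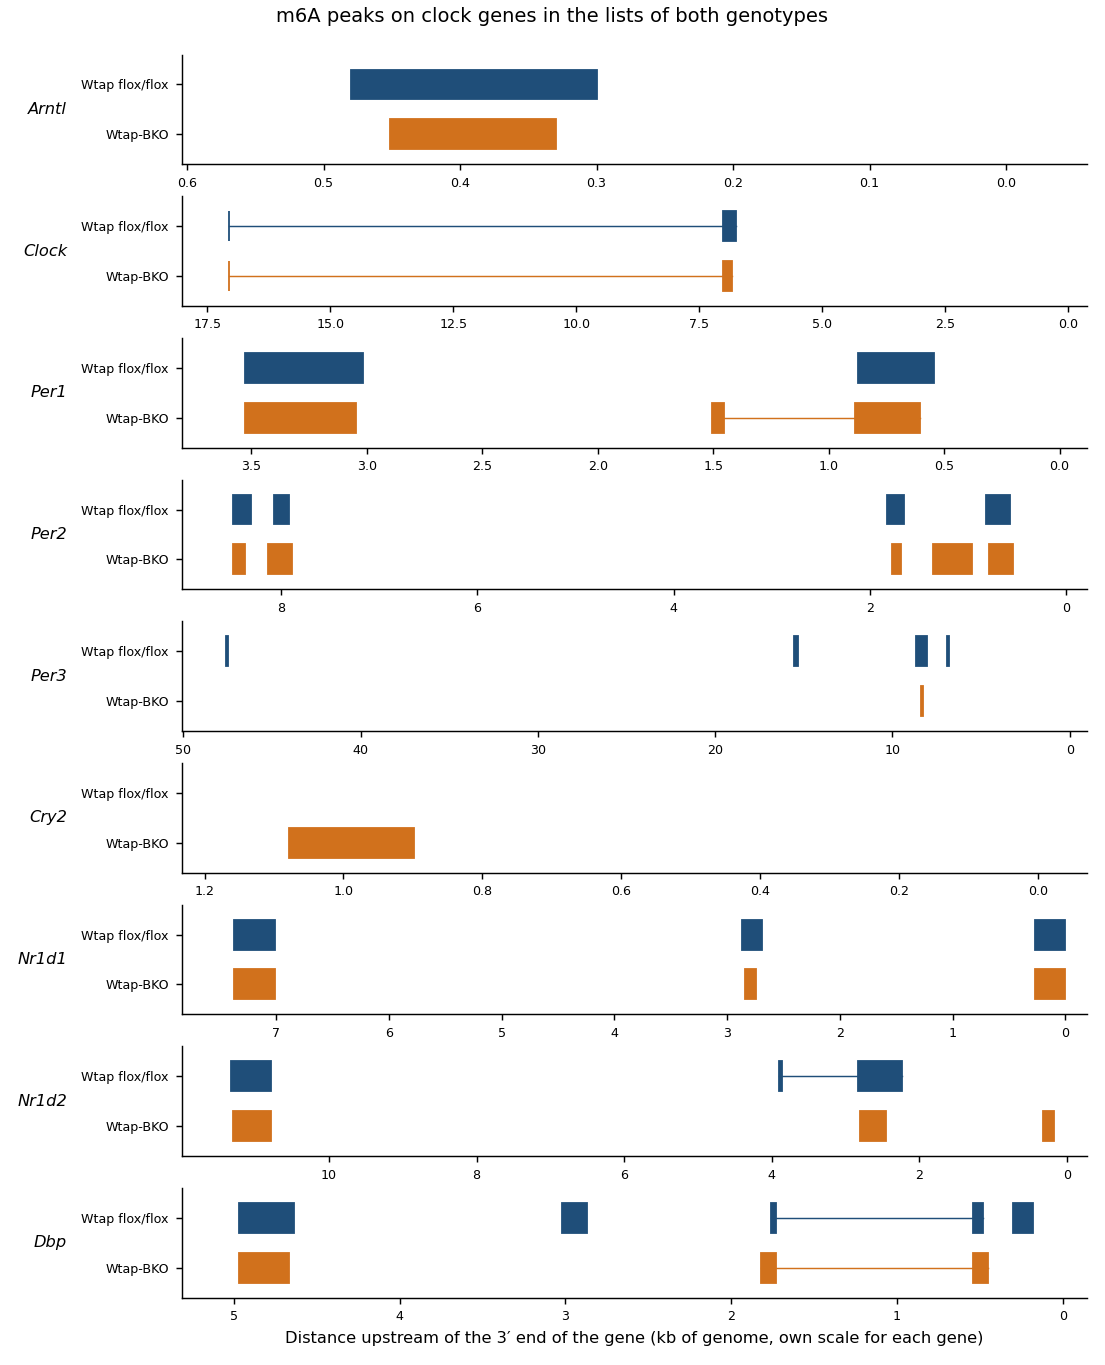
Position of every m6A peak on the 9 clock genes with peaks, as distance in kb of genome upstream of the 3′ end of the gene, controls (*Wtap* flox/flox) above and *Wtap*-BKO below and a separate scale for each gene. Boxes are exonic blocks and thin lines join blocks of 1 peak. *Nr1d1* shows the same 3 places in both lists, whereas *Per3* shows 4 control places and 1 in *Wtap*-BKO.

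Among the activators, *Arntl* (ENSMUSG00000055116, plus strand of chromosome 7) had 1 weak peak in each list near the end of the gene. The control peak lay from 113313647 to 113313826, with its centre 389 bp from the 3′ end, and was enriched 13.5-fold and had a log10 FDR of −2.90. The *Wtap*-BKO peak, from 113313676 to 113313796, lay wholly inside it and was enriched 9.86-fold and had a log10 FDR of −1.74. Its FDR was stronger than only 1.85% of the *Wtap*-BKO list, close to the authors' limit, against 15.5% for the control peak in its own list. By fold enrichment the same peaks were stronger than 76.0% and 80.03% of their lists, so the rank of *Arntl* depended on which measure was used.

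*Clock* (ENSMUSG00000029238, minus strand of chromosome 5) encodes the partner of ARNTL and also had 1 peak in each list. Both peaks crossed the same splice junction, with 3 bases on the upstream side and the rest beyond an intron. In control mice the peak ran from 76216611 to 76226935 and covered 271 exonic bases, enriched 10.1-fold with a log10 FDR of −19.9. In *Wtap*-BKO mice it started at 76216701, covered 181 of the same bases, and was enriched 2.86-fold and had a log10 FDR of −4.66. *Clock* thus went from stronger than 73.1% of the control list to stronger than 38.8% of the *Wtap*-BKO list by FDR, and from 67.6% to 25.4% by fold enrichment. Among all 12467 control peaks matched to a *Wtap*-BKO peak of the same gene, 6.85% had as low a difference in FDR rank, and 6.30% as low a difference in fold rank.

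The 3 period genes encode repressors of CLOCK and ARNTL and are themselves targets of that pair. *Per1* (ENSMUSG00000020893, plus strand of chromosome 11) had 2 peaks in each list, and all 4 were found. Its first control peak, from 69106441 to 69106950, was enriched 3.56-fold and had a log10 FDR of −24.6, and the *Wtap*-BKO peak, from 69106441 to 69106920, had 4.65 and −43.9. The second control peak, from 69109092 to 69109421, had 12.2 and −28.3, and its *Wtap*-BKO counterpart had 15.9 and −36.2. Both *Per1* peaks ranked higher in the *Wtap*-BKO list than in the control list, at 91.8% against 77.5% for the first and 89.6% against 80.2% for the second. The second *Wtap*-BKO peak began further upstream, at 69108463, with a block of 49 bases before an intron that the control peak did not reach.

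*Per2* (ENSMUSG00000055866, minus strand of chromosome 1) had 4 peaks in control mice and 5 in *Wtap*-BKO mice, in 2 clusters about 8 kb and under 2 kb from the 3′ end. All 4 control peaks were found. The upstream cluster held control peaks from 91424286 to 91424466 and from 91423898 to 91424047, with fold enrichments of 7.49 and 6.25 and log10 FDRs of −4.58 and −3.46. The *Wtap*-BKO peaks on them, from 91424346 to 91424466 and from 91423868 to 91424107, had fold enrichments of 3.03 and 5.31 and log10 FDRs of −2.09 and −5.47. These neighbours went opposite ways, the first from stronger than 33.7% to 5.24% of its list by FDR and the second from 22.7% to 44.9%.

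In the downstream cluster of *Per2*, the control peaks from 91417625 to 91417804 and from 91416550 to 91416789 had fold enrichments of 7.31 and 11.7 and log10 FDRs of −4.77 and −7.06. Their *Wtap*-BKO counterparts, from 91417655 to 91417744 and from 91416520 to 91416759, had 4.42 and 5.17, with −3.01 and −7.61. Between these lay the peak listed in *Wtap*-BKO mice only, from 91416938 to 91417326. It covered 389 bases, the most of any *Per2* peak, enriched 2.94-fold with a log10 FDR of −3.84, and its nearest control peak was 148 bases away. *Per2* was the only member with peaks in both lists that had more bases under *Wtap*-BKO peaks, 1080 against 751.

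*Per3* (ENSMUSG00000028957, minus strand of chromosome 4) had the largest difference in number of peaks among the members, with 4 in control mice and 1 in *Wtap*-BKO mice. The strongest control peak, from 151005089 to 151005687, covered 599 bases and was enriched 4.01-fold and had a log10 FDR of −10.3. The single *Wtap*-BKO peak lay inside it, from 151005298 to 151005418, covering 121 bases enriched 2.76-fold with a log10 FDR of −4.25. By FDR rank the pair stood at 57.4% of the control list and 35.2% of the *Wtap*-BKO list.

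The other 3 *Per3* peaks of the control list had no *Wtap*-BKO peak on them. One lay at the start of the gene, from 151044485 to 151044635, with its centre 147 bp from the 5′ end, a fold enrichment of 7.49 and a log10 FDR of −4.96. The next, from 151012348 to 151012588, had 3.21 and −5.06, and the last, from 151003832 to 151003921, had 3.0 and −1.81. Their nearest *Wtap*-BKO peaks were 39066, 6929 and 1376 bases away, none of them at the edge of a peak. The last 1 was stronger than only 1.96% of the control list. In all, 1081 exonic bases of *Per3* lay under control peaks and 121 under the *Wtap*-BKO peak, a ratio of 8.93, and 0.175% of the 7409 genes listed in both genotypes had as high a ratio.

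Of the cryptochromes, which repress CLOCK and ARNTL together with the PER proteins, *Cry1* had no peak in either list. *Cry2* (ENSMUSG00000068742, minus strand of chromosome 2) had 1 *Wtap*-BKO peak, from 92404544 to 92404724, with its centre 988 bp from the 3′ end. Its fold enrichment was 2.32 and its log10 FDR −3.82, with ranks of 15.1% and 30.6% in that list. Over all genes with a peak in either list, 13.2% had peaks in *Wtap*-BKO mice only. *Cry2* was thus the only member listed in 1 genotype alone, with a peak in the weaker part of its list.

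**Figure D2:**
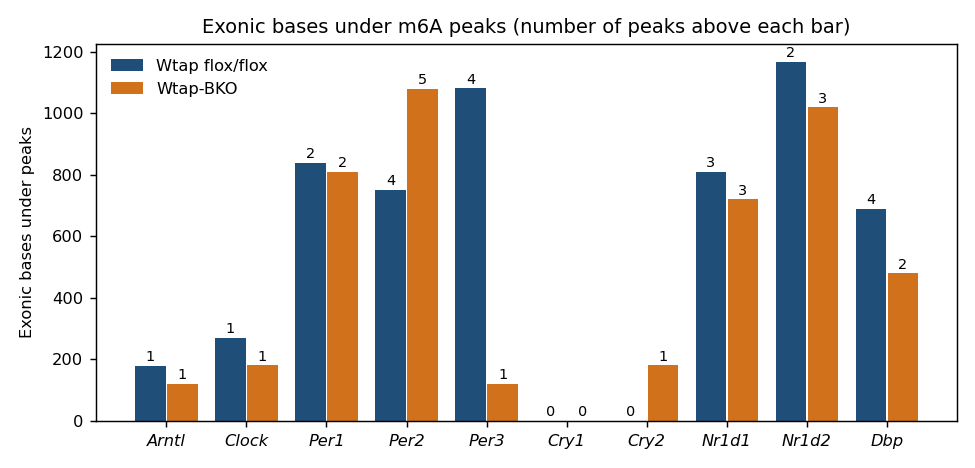
Exonic bases under m6A peaks (vertical axis) for the 10 clock genes by genotype, with the number of peaks above each bar. *Per3* had 1081 bases in the controls and 121 in the *Wtap*-BKO mice, *Per2* had 751 and 1080, and *Cry1* had 0 in both.

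*Nr1d1* and *Nr1d2* are the repressors of *Arntl*, and each had a peak of much the same FDR rank in both lists. *Nr1d1* (ENSMUSG00000020889, minus strand of chromosome 11) had 3 peaks in each list, and all 6 were found. The first, from 98774945 to 98775303, had its centre 253 bp from the 5′ end and the same bases in both lists. Its fold enrichment was 6.55 in control mice and 7.04 in *Wtap*-BKO mice, with log10 FDRs of −31.5 and −26.5. This peak near the start of *Nr1d1* had almost the same rank by FDR, at 82.3% and 85.3% of its list. By fold enrichment its rank differed more, at 49.8% of the control and 66.2% of the *Wtap*-BKO list.

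The middle *Nr1d1* peak ran from 98770619 to 98770799 in control mice and from 98770679 to 98770769 in *Wtap*-BKO mice, with fold enrichments of 1.69 and 1.29 and log10 FDRs of −11.7 and −3.36. The peak at the end of the gene, from 98767932 to 98768201, covered the same 270 bases in both lists, and here the fold enrichments were 2.11 and 3.97 and the log10 FDRs −12.6 and −49.4. These 2 peaks had opposite differences in rank. By FDR the middle peak stood at 60.6% of the control list and 25.4% of the *Wtap*-BKO list, whereas the end peak stood at 62.5% and 92.9%. Of all matched peaks, 12.8% had as high a difference in FDR rank as the end peak, and 8.49% as high a difference in fold rank.

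The end of *Nr1d1* overlaps the end of *Thra*, the thyroid hormone receptor α gene on the opposite strand, which spans 98740776 to 98769006 in the gene table. In both lists a *Thra* peak, from 98765062 to 98768197, shared 41 bases with the end peak of *Nr1d1*. The fold enrichment of this *Thra* peak was 2.23 in control mice and 1.89 in *Wtap*-BKO mice, with log10 FDRs of −7.99 and −6.73. The medians of log10 FDR over all peaks were −7.75 and −6.3, so by FDR this peak stood a little above the middle of both lists. Whether reads were counted by strand is not given in the sources used here, and without strand the reads of *Nr1d1* and *Thra* in this stretch cannot be told apart.

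*Nr1d2* (ENSMUSG00000021775, minus strand of chromosome 14) had 2 peaks in control mice and 3 in *Wtap*-BKO mice. Its first peak, from 18214847 to 18215385 in control mice and to 18215355 in *Wtap*-BKO mice, was the strongest of all clock gene peaks by FDR in both lists. The fold enrichments were 9.83 and 9.44 and the log10 FDRs −85.8 and −78.5, stronger than 94.5% and 96.3% of the lists. The second control peak, in 2 blocks from 18206295 to 18207959, covered 628 bases enriched 6.04-fold with a log10 FDR of −35.0. On it lay a *Wtap*-BKO peak of 360 bases, from 18206504 to 18206863, with 4.08 and −18.1. Another peak, in *Wtap*-BKO mice only, lay from 18204233 to 18204383, with its centre 252 bp from the 3′ end, a fold enrichment of 1.79 and a log10 FDR of −6.00. The first *Nr1d2* peak had the smallest difference in FDR rank of the 16 matched pairs, 1.81 points.

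*Dbp* (ENSMUSG00000059824, plus strand of chromosome 7) encodes a PAR bZIP factor that carries clock output to other genes, and had 4 peaks in control mice and 2 in *Wtap*-BKO mice. The first control peak, from 45705238 to 45705567, was enriched 13.5-fold and had a log10 FDR of −32.9, and the *Wtap*-BKO peak on it, from 45705238 to 45705537, had 6.77 and −63.4. Here the 2 measures went opposite ways, from 83.0% to 95.0% of the list by FDR and from 80.03% to 64.7% by fold enrichment. The second control peak, from 45707185 to 45707334, had 9.18 and −6.74 and no *Wtap*-BKO peak on it, the nearest being 1047 bases away.

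The third control peak of *Dbp*, from 45708442 to 45709724, covered 90 bases on both sides of an intron, enriched 2.0-fold with a log10 FDR of −4.44. The *Wtap*-BKO peak on it, from 45708382 to 45709754, covered 180 bases with 1.89 and −15.1, and 6.78% of all matched peaks had as high a difference in FDR rank. The fourth control peak, from 45709904 to 45710023, had 1.48 and −2.71 and was not found. All of its 120 bases were shared with a control peak of *Sphk2*, the sphingosine kinase gene on the opposite strand, which was enriched 1.43-fold and had a log10 FDR of −2.72. The second *Wtap*-BKO peak of *Dbp* shared 72 bases with a *Sphk2* peak of fold enrichment 1.93. As with *Nr1d1* and *Thra*, reads of *Dbp* and *Sphk2* at this end cannot be told apart without strand.

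Taking the 10 genes as a group, 16 of 21 control peaks (76.2%, 95% Wilson interval 54.9% to 89.4%) had a *Wtap*-BKO peak on them, as did 67.8% of all control peaks. In the other direction, 16 of 19 *Wtap*-BKO peaks (84.2%, 62.4% to 94.5%) had a control peak on them, against 68.0% of all *Wtap*-BKO peaks. Both intervals include the share over all peaks, and they treat peaks as independent although peaks of 1 gene share a transcript. The 5 control peaks not found came from *Per3* and *Dbp* alone, and the 3 *Wtap*-BKO peaks not found came from *Per2*, *Cry2* and *Nr1d2*. Of the 8 clock genes with control peaks, 6 had every control peak found, while 54.3% of all genes with control peaks did, and 6 of the 9 with *Wtap*-BKO peaks had each of those found, while 52.5% of all did. Among peaks with an FDR under 1e-05, 11 of 13 control peaks (84.6%, against 79.6%) and 10 of 11 *Wtap*-BKO peaks (90.9%, against 84.6%) were found. Each of the 9 genes with a peak was then placed by list, and 8 of 9 had peaks in both lists, compared with 73.3% of all genes with a peak in either.

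The clock genes had 5790 exonic bases under control peaks and 4714 under *Wtap*-BKO peaks, of which 3723 were common to both. Summed over all peaks, the lists held 5786750 and 5250521 exonic bases. *Per3* alone had 1081 of the control and 121 of the *Wtap*-BKO bases of the clock genes, and so made up most of their difference. More bases under control peaks were found for 7 of the 8 genes with peaks in both lists, compared with 54.0% of all such genes. Outside *Per3*, the ratios of control to *Wtap*-BKO bases ran from 0.695 for *Per2* to 1.5 for *Clock*, and the median over all genes was 1.07. Of the 16 pairs, 10 were wider in the control list (47.9% of all matched peaks) and 2 were wider in the *Wtap*-BKO list (41.1%). The other 4 had the same number of bases, as did the remainder of all matched peaks. The *Nr1d1* peaks at the start and the end of the gene were identical to the base, as were 7.1% of all matched peaks.

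By FDR rank, the clock gene peaks stood in the middle of both lists, with medians of 47.4% in control mice and 48.4% in *Wtap*-BKO mice. Their median fold enrichments were 6.55 and 4.08, next to 6.58 and 4.65 over all peaks of the same lists. Of the 16 matched pairs, 9 had the higher FDR rank in *Wtap*-BKO mice, which is 56.2% and stands beside 56.0% of all matched peaks, and 7 had the higher fold rank there, against 50.8%. The median difference in FDR rank, *Wtap*-BKO minus control, was 2.38 percentage points for clock gene peaks and 2.18 over all matched peaks. Single pairs ran from −35.2 points for the middle *Nr1d1* peak to 41.5 points for the third *Dbp* peak, within the range over all matched peaks of −93.0 to 92.0 (quartiles −10.9 and 17.9). By fold rank these same peaks differed by −1.72 and 2.23 points.

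**Figure D3:**
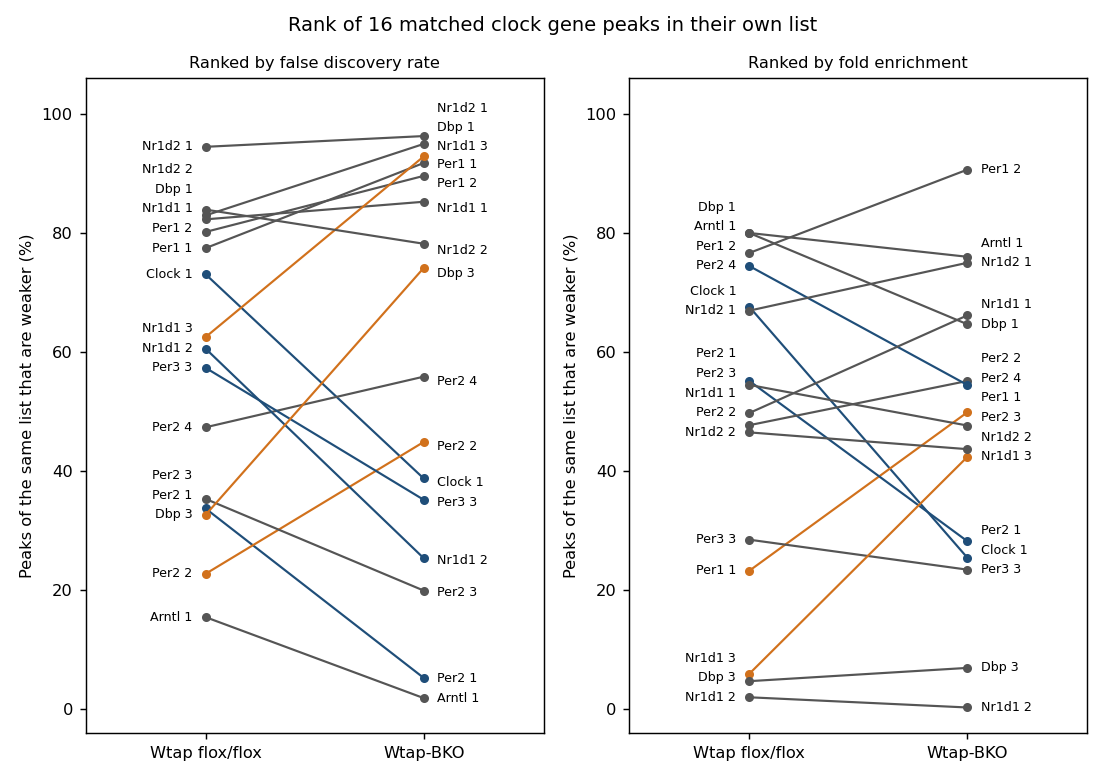
Rank of the 16 matched clock gene peaks in each list, as the percentage of peaks in the same list with a weaker FDR (left) or a lower fold enrichment (right). Each line is 1 peak, labelled by gene and *Wtap* flox/flox peak number, blue where it is at least 20 points lower and orange where it is at least 20 points higher in *Wtap*-BKO. *Clock* and the first *Per2* peak are lower, and the third *Nr1d1* peak higher, on both measures.

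A ratio of fold enrichments between 2 peaks of 1 gene does not depend on how the libraries were scaled. On *Per1* the first peak was 0.292 times as enriched as the second in both lists. On *Nr1d1* the peak at the start was 3.10 times as enriched as that at the end in the control list and 1.77 times in the *Wtap*-BKO list. The middle *Nr1d1* peak was 0.801 times as enriched as the end peak in the control list and 0.325 times in the *Wtap*-BKO list, the largest difference between lists among the 12 pairs of clock gene peaks, and 29.3% of all such pairs had one as large. On *Dbp* the first peak was 6.75 and 3.58 times as enriched as the third. The *Nr1d1* end peak shares 41 bases with a *Thra* peak in both lists. The *Wtap*-BKO peak on the third *Dbp* peak shares 72 bases with a *Sphk2* peak. Without strand, these ratios may hold reads of the other gene. The middle *Nr1d1* peak also covered 181 and 91 bases, and the third *Dbp* peak 90 and 180, so the bases compared differ between lists. With fold enrichments of 1.69 and 1.29, the middle *Nr1d1* peak was near the lowest values of the whole lists, 1.18 and 1.12.

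Over the 12 pairs, which come from 5 genes and share peaks, the median size of the log2 difference between lists was 0.54, against 0.81 over 7303 pairs from 2804 genes. The order of 2 peaks within a gene differed between the lists for 4 of the 12 pairs, all of them on *Per2*, against 31.2% of all pairs. For *Per1*, *Nr1d1*, *Nr1d2* and *Dbp*, the order of enrichment along the gene was the same in both genotypes.

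**Figure D4:**
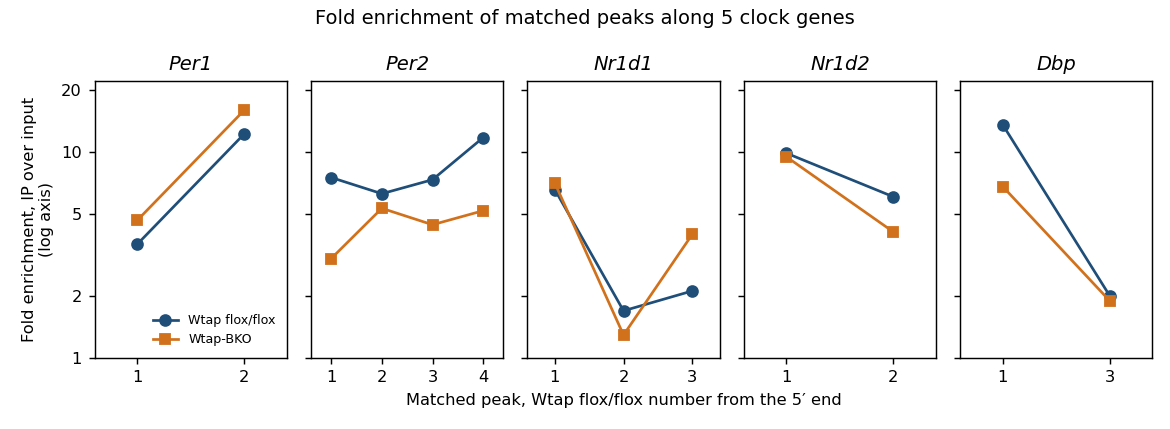
Fold enrichment of IP over input (log axis) for matched peaks along the 5 clock genes with at least 2 of them, by *Wtap* flox/flox peak number from the 5′ end. Circles are *Wtap* flox/flox and squares *Wtap*-BKO peaks, and heights are comparable within a line, not between lines. The 2 *Per1* lines are parallel, and on *Nr1d1* the third peak lies higher relative to the first in *Wtap*-BKO mice.

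Most clock gene peaks, like most peaks of both lists, had their centre more than 1000 bp from the 5′ end of the gene. Of the control peaks, 6 of 21 (28.6%, 95% Wilson 13.8% to 49.96%) lay, by their centre, no more than 1000 bp from the 3′ end of the gene, against 21.7% of all control peaks in genes spanning at least 3000 bp. In *Wtap*-BKO mice there were 7 of 19 (36.8%, 95% Wilson 19.1% to 59.0%), against 19.3%, and both intervals include the share over all peaks. A window of 500 bp held 3 control peaks (14.3%, against 11.5%) and 3 *Wtap*-BKO peaks (15.8%, against 9.85%). Within 1000 bp of the 5′ end there were 3 control peaks, on *Per3*, *Nr1d1* and *Dbp* (14.3%, against 11.4%), and 2 *Wtap*-BKO peaks, on *Nr1d1* and *Dbp* (10.53%, against 13.1%). The *Wtap*-BKO peaks with no control peak on them had their centres 988 bp (*Cry2*), 252 bp (*Nr1d2*) and 1155 bp (*Per2*) from the 3′ end. Distances over all such *Wtap*-BKO peaks are not given here, so no trait of clock genes can be read from these.

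A wider list of 24 clock genes was compared with the members. It holds the paralogues *Npas2* and *Arntl2*, nuclear receptors that activate *Arntl*, the PAR bZIP and related factors, the kinases and ubiquitin ligases that set PER and CRY stability, and output genes. Peaks in both lists were found for 20 of the 21 genes with a peak, against 73.3% of all genes with a peak in either list. *Ciart* had a peak in control mice only, and *Arntl2*, *Rorb* and *Fbxl21* had none. The *Ciart* peak, on a gene that encodes a repressor of CLOCK and ARNTL, was weak, with a log10 FDR of −1.59. Of 44 control peaks of the wider list, 32 were found (72.7%, against 67.8% of all control peaks). Of its 47 *Wtap*-BKO peaks, 35 were found (74.5%, against 68.0% of all *Wtap*-BKO peaks).

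The strongest peak of a gene in each list was then ranked by FDR. In the wider list this rank was higher in *Wtap*-BKO mice for 5 of the 20 genes, compared with 51.2% of all genes listed in both genotypes and with 5 of the 8 members. Genes of this list with strong control peaks included *Bhlhe40*, *Csnk1d*, *Noct* and *Nfil3*. *Bhlhe40*, which encodes a repressor that acts on clock genes, stood at 98.9% of the control list and 98.6% of the *Wtap*-BKO list, and *Csnk1d*, a kinase of PER proteins, at 97.4% and 93.0%. *Noct*, a rhythmic phosphatase, stood at 95.4% and 91.7%. *Nfil3*, a repressor at the sites that DBP binds, stood at 93.0% and 56.9%.

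The relatives of *Dbp* were looked at after the values were seen. *Tef* stood at 92.7% of the control list and 40.7% of the *Wtap*-BKO list, and *Hlf* at 59.2% and 28.6%, with none of its 3 control peaks found. *Dbp* itself stood at 83.0% and 95.0%. By FDR rank *Dbp* was thus higher, and *Tef* and *Hlf* lower, in the *Wtap*-BKO list. By fold rank the same *Dbp* peak was lower there, at 64.7% against 80.03%, and fold ranks of *Tef* and *Hlf* were not compared.

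**Figure D5:**
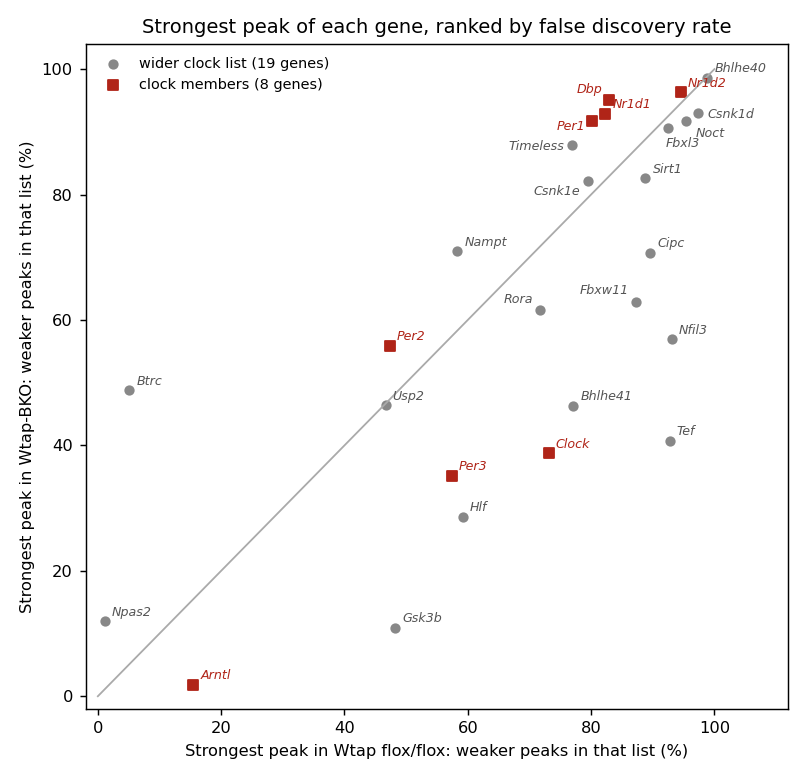
Rank of the strongest peak of each gene by FDR among control (horizontal) and *Wtap*-BKO peaks (vertical), as the percentage of weaker peaks in the same list, for 8 clock members (red squares) and 19 of the 20 genes of the wider list (grey circles). The line marks equal ranks. *Per1*, *Per2*, *Nr1d1*, *Nr1d2* and *Dbp* lie above the line, and *Clock*, *Per3* and *Arntl* below it with most of the wider list.

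Genes with the same numbers of peaks and of control peaks found were sought for each member, and the one with the closest ranks of its strongest peaks in the 2 lists was named. The pattern of *Arntl* and *Clock*, 1 peak in each list that was found, was shared by 1788 other genes, and the closest were *9430038I01Rik* and *Egln3*. That of *Per3*, with 4 control peaks, 1 found, and 1 *Wtap*-BKO peak, was shared by 30 other genes, the closest being *Zfp512b*. *Per2* had 31 such genes, with *Fam124a* the closest, at a distance of 8.46 percentage points. The closest were *Arhgap17* for *Per1*, *Drap1* for *Nr1d1*, *Heyl* for *Nr1d2*, *Cyb5b* for *Dbp* and *Il17d* for *Cry2*. Likeness here rests on 2 lists only.

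Marker genes of cell types were looked up in the lists, which hold no transcript levels, so their peaks do not measure cell content. All 11 brown adipocyte markers, *Ucp1* among them, had a control peak, and 10 had a *Wtap*-BKO peak, with *Elovl3* listed in control mice only. Over all genes with a peak in either list, 13.5% had peaks in control mice only and 13.2% in *Wtap*-BKO mice only. Peaks on the markers of other cell types were more numerous in the *Wtap*-BKO list. There the 5 macrophage markers had 10 (4 in the controls), the 6 lymphocyte markers 3 (0 in the controls) and the 5 muscle markers 6 (3 in the controls). The whole lists held 18400 control and 18693 *Wtap*-BKO peaks. For the 5 fibroblast markers, which had 6 and 7 peaks, the strongest peak ranked higher by FDR in *Wtap*-BKO mice in 5 of 5. Over all genes listed in both genotypes this share was 51.2%. Among markers with peaks in both lists, it ranked higher for 3 of 3 macrophage, 3 of 3 muscle and 5 of 10 brown adipocyte markers. Those 5 include *Cox8b*, *Adipoq* and *Fabp4*, which had an FDR given as 0 in both lists. Their ranks are ties at the limit, 99.2% in the control and 99.6% in the *Wtap*-BKO list, and count as higher only for that reason. Among the other brown adipocyte markers in both lists, *Cidea* and *Plin1* ranked higher in *Wtap*-BKO mice. *Ucp1*, *Prdm16*, *Ppargc1a*, *Pparg* and *Dio2* ranked lower there. Markers without a peak in either list included *Cd3e*, *Cd79a*, *Adgre1* and *Ckm*. Clock genes are expressed in all of these cell types, and the part of cell composition in their peaks was not tested.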

How the data were processed

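MeRIP-seq peak lists of iBAT were analysed, 1 per genotype, each from 1 IP and 1 input pooled from several mice and mapped to genotype by the sample titles. The authors deposited spliced peaks on Ensembl genes, filtered at an FDR under 0.05. The methods name MACS2 for peak calling, although the layout is that of exomePeak. The submitters' processing notes name fastp 0.19.11, BWA 0.7.12, HOMER 4.9.1 and GRCm38.p6. Each deposited peak carries a p-value, scores that are the log10 of its p-value and FDR, and a fold enrichment, a ratio whose library scaling is not described. These were used as deposited.

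Peaks were matched and ranked in Python 3.11.15 with numpy 2.4.6, pandas 2.3.3 and scipy 1.17.1, drawn with matplotlib 3.10.9, and the matching was tested on simulated data. A matched pair joins a control peak to the *Wtap*-BKO peak of the same gene that shares most bases. Starts are 1-based. Wilson intervals cover counting error only. Named were all 10 members, wider-list genes in 1 list only or with the 5 strongest control peaks, and the closest gene by pattern. Members, lists and rules were chosen with earlier results of these data known. Some genes of the lists count in the totals and are not reported here by name. Transcript annotation and sequence were not used here.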

Additional observations from a re-analysis of the deposited data

How the results depend on the processing

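Shares of peaks found, ranks, covered bases and distances were recomputed under stricter FDR limits, other overlap rules and other windows, and without peaks that overlap a listed peak of another gene on the opposite strand, an alternative chosen after seeing the data. Asking only for any peak on the same gene brought the control peaks found to 100% and the *Wtap*-BKO peaks found to 94.7%. With an FDR under 1e-05 in both lists, 61.5% of control and 72.7% of *Wtap*-BKO peaks were found, and 5 clock genes (*Per1*, *Per2*, *Nr1d1*, *Nr1d2* and *Dbp*) had peaks in both lists. Under 1e-20 there were 4 clock genes and 7 genes of the wider list. Shares over all peaks and genes under these rules are not given here, so these values cannot be set against the lists as a whole. A window of 500 bp put 15.8% of *Wtap*-BKO peaks near the 3′ end. The other alternatives stayed within the interval, or within 1.5 times, of the reported value. No paired analysis was possible because each genotype has 1 pooled sample, and no replicate could be left out. The lists do not give read depth, which limits what an unlisted peak means.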
